A study of Mus musculus with 4 samples.

Results

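The 40 cell cycle and DNA replication genes described here were chosen by gene symbol, from a list of cell cycle genes, and every probe with a RefSeq accession of such a symbol was kept. This gave 52 probes of 39429 non-control probes, and 40 genes of 20659 named genes. They fall into 13 DNA replication genes, 22 genes of mitosis and 5 other genes, grouped here as G1/S regulators. This name is a label only, since the group also holds Chek1 and Mybl2, whose roles given below lie elsewhere in the cycle. The RNA was that of lymphocytes taken from the lamina propria, the tissue layer beneath the intestinal epithelium, of C57BL6 mice on day 10. The 4 groups were labelled Stat4-/- given DSS and LIF, labelled Stat4-/- given DSS, wild type given DSS and LIF, and wild type given DSS, and Stat4-/- arrays are called labelled knockout here. Mice of all groups had received dextran sulfate sodium (DSS), which damages the colonic epithelium and brings on colitis, so no array shows uninflamed tissue. LIF is leukemia inhibitory factor, which signals through the gp130 receptor, and Stat4 is a transcription factor activated by interleukin-12. Each group used 5 mice and is represented by 1 one-colour array. The labels leave unsaid if these mice were pooled, and give neither their age nor the Stat4 allele. Mock-treated mice named in the protocols are not analysed here.

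With 1 array per group no difference between groups has a replicate check, and none was tested. A level is the log2 processed signal of a probe less the 75th percentile of its array, so 0 is the brightness of the 75th percentile and a difference of 1 is 2-fold. Levels of different probes are no order of abundance. Stat4 itself was at -0.47 and 0.31 on the labelled knockout arrays with and without LIF, and at 0.22 and -0.50 on the wild-type arrays with and without LIF. The genotypes thus overlapped at this probe. Its place relative to the deletion is not known here, and directions between genotypes rest on labels alone. The T cell marker Cd3e was well above background on all 4 arrays, at 1.01 to 1.71, and so was the epithelial marker Epcam, at -0.42 to 2.32. The wild-type array with DSS and LIF stood apart. Its correlation with the others over 12674 probes was 0.800 to 0.818, against 0.951 to 0.980 among the other 3. The 75th percentile was at a signal of 23.7 on it, against 42.9 to 123 on the others. Both arrays without LIF were read in 1 scan and each LIF array in a scan of its own, so in 3 of the 4 comparisons scan and group cannot be told apart.

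Cells license their DNA for copying in G1, when Cdc6 and Cdt1 load the helicase encoded by Mcm2 to Mcm7, and E2F transcription factors then switch on replication genes as cyclin E and its kinase act. After S phase, the MuvB complex with B-Myb (Mybl2) and FoxM1 switches on mitotic genes, many of which carry a cell cycle homology region (CHR) in the promoter. In the gut wall, activated lymphocytes divide during inflammation, and crypt epithelium divides continuously.

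The promoters of replication and mitosis members differed in how often they held 3 cell cycle motifs, and 5 stretches, of genes whose values are given below, show what such matches look like. Each covers the 150 bases before the start of the gene, 5′ to 3′ on the minus strand of the RefSeq annotation of GRCm38.p6, at chr1:128359706-128359855 for Mcm6, chr2:132253181-132253330 for Pcna, chr10:69352913-69353062 for Cdk1, chr4:118437344-118437493 for Cdc20 and chr7:135716380-135716529 for Mki67. Capitals mark matches on either strand to an E2F-like site (TTGGCGC or TTCCCGC or TTCGCGC or TTGCCGC), to the CHR (TTTGAA) or to the CCAAT box (CCAAT).
Mcm6: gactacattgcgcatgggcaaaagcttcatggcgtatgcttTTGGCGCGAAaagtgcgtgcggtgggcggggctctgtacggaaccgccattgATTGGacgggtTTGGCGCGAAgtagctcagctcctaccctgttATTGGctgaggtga
Pcna: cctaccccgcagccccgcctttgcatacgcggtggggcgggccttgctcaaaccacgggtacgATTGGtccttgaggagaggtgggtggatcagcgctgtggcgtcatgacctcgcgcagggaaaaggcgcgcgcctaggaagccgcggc
Cdk1: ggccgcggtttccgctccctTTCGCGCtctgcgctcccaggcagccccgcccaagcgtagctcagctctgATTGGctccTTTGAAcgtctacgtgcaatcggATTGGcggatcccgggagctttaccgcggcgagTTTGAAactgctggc
Cdc20: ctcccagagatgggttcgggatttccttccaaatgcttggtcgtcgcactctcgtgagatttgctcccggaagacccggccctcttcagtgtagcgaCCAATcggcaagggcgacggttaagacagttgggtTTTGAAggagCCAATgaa
Mki67: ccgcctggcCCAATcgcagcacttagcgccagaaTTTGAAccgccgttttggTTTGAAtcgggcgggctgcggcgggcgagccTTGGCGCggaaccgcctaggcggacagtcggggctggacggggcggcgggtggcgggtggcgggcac

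Mcm6, a helicase subunit, shows 4 E2F-like matches, which form overlapping pairs because TTGGCGC and the reverse of TTCGCGC share bases, and 2 CCAAT boxes. Pcna, the sliding clamp of DNA polymerases, shows 1 CCAAT box. Cdk1, the kinase that starts mitosis, shows 1 E2F-like match, 2 CHR matches and 2 CCAAT boxes. Cdc20, which activates the anaphase-promoting complex, shows 1 CHR match between 2 CCAAT boxes. Mki67, the gene of the proliferation marker Ki-67, shows 1 E2F-like match, 2 CHR matches and 1 CCAAT box.

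A RefSeq promoter window of 300 bases, from 250 before to 50 after the start, was at hand for 33 of the 40 genes. A gene with several windows counts if any of them has a match. The E2F-like letters were in 8 of 12 replication genes (66.7%), 3 of 17 mitosis genes (17.6%) and 10.9% of all 27025 genes with a window. The replication genes with a match were Cdc6, Cdt1, Mcm3, Mcm5, Mcm6, Mcm7, Rrm1 and Rrm2. The CHR letters ran the other way, in 1 of 12 replication genes (Mcm2), 12 of 17 mitosis genes (70.6%) and 20.2% of all genes. CCAAT was in 66.7% of replication genes, 88.2% of mitosis genes and 41.1% of all genes. Other replication and mitosis genes, 29 and 56 with a window, held E2F-like letters in 62.1% and 26.8% and the CHR in 20.7% and 60.7%. In the mitosis genes the median first base of a CHR match was -16.5 and that of a CCAAT match -67.5 relative to the start, and in the replication genes that of an E2F-like match was -56.5. These are matches of letters, not sites shown to be bound.

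**Figure D1:**
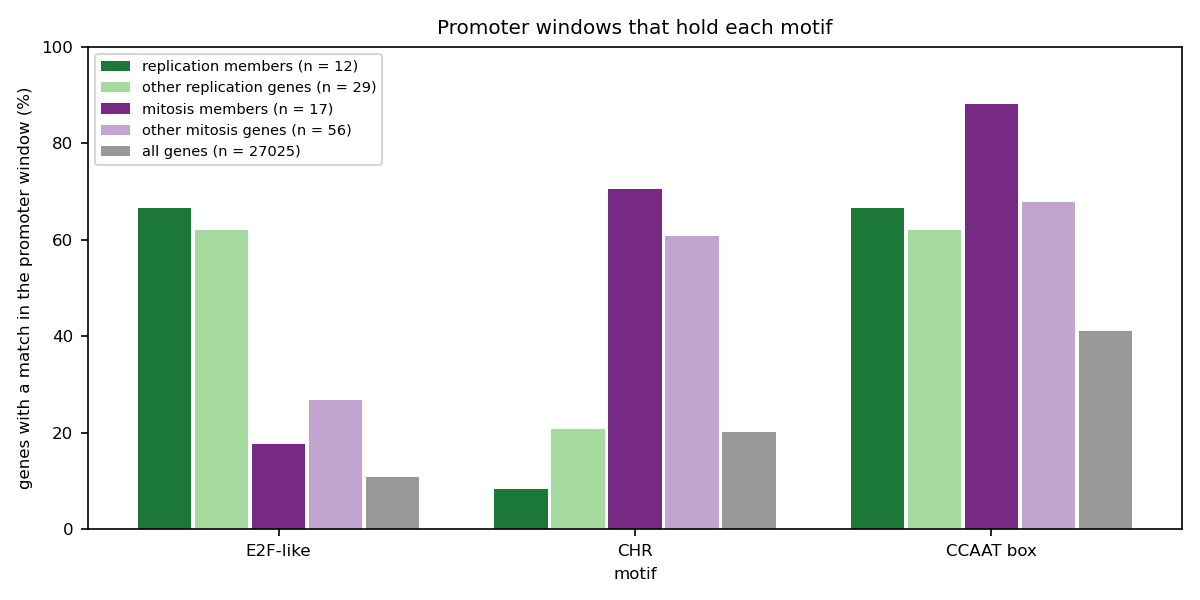
Share of genes (percent) with at least 1 match to each motif in a promoter window (250 bases before to 50 after the start), for the gene classes and for all genes. E2F-like letters stand at 66.7% in replication genes and 17.6% in mitosis genes, and CHR letters at 8.33% and 70.6%.

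Of the 40 genes, 29 were well above background by at least 1 probe in labelled knockout cells with LIF, 27 in labelled knockout cells without it, 28 in wild-type cells with LIF and 36 in wild-type cells without it. The shares of 72.5%, 67.5%, 70% and 90% compare with 52.6%, 51.9%, 45.4% and 68.1% of all genes on the same arrays. All 13 replication genes were seen on the brightest array, wild type with DSS, and 10 of them on every array. Of the mitosis genes, 19 of 22 were seen on that brightest array, 11 on every array, and Bub1b and Ttk, both spindle checkpoint kinases, on none. Ccne2, a cyclin E, was not well above background on any array either. Seen on every array were 62.5% of the 40 genes and 39.5% of all 20659 genes, and seen on none were 3 and 6046.

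**Figure D2:**
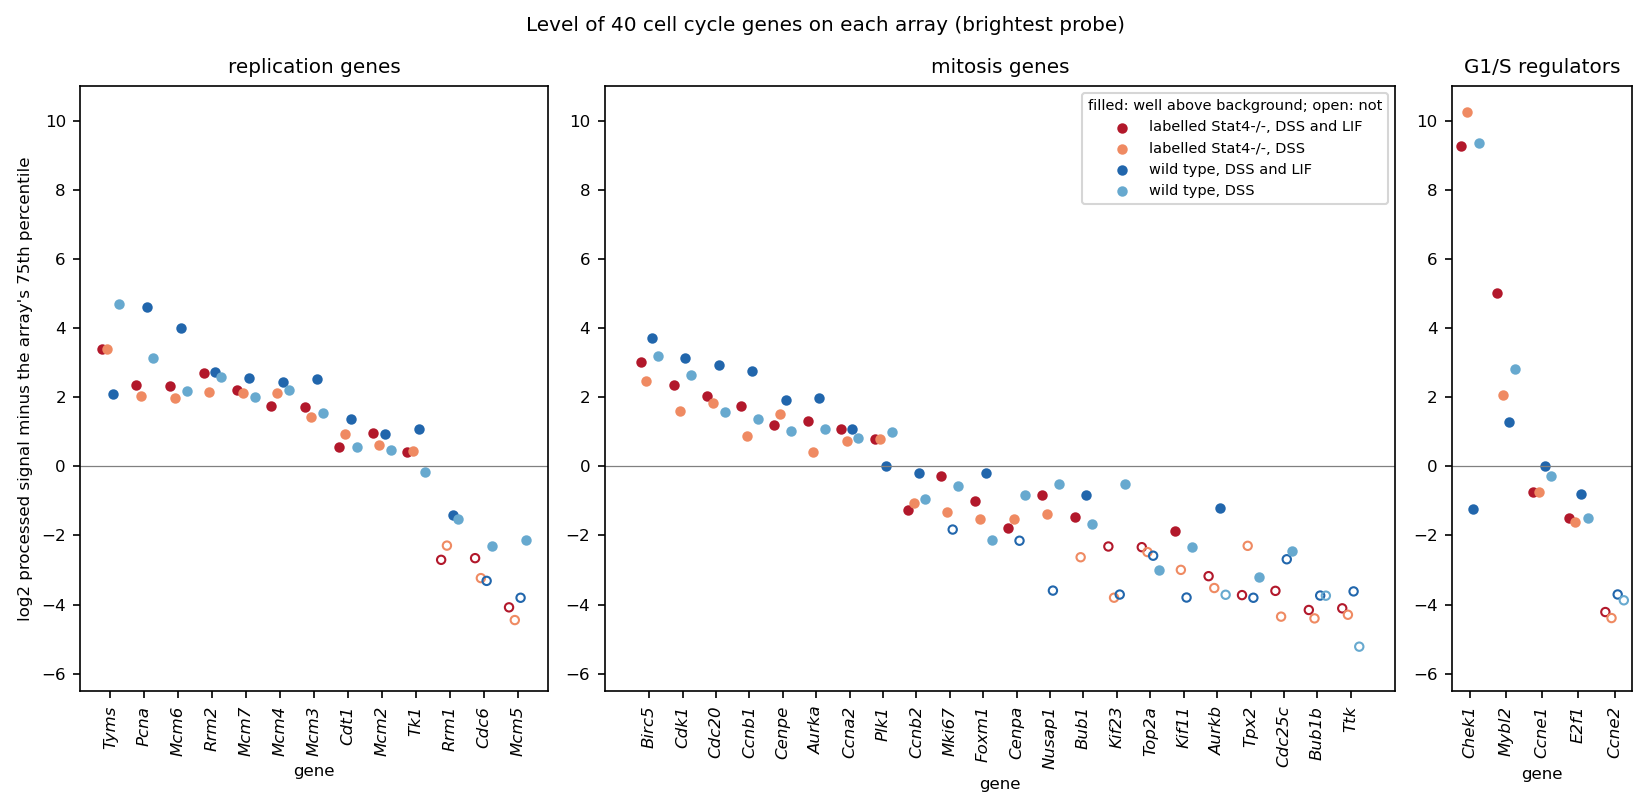
Level of each gene (log2 signal relative to the 75th percentile of the array) on the 4 arrays, by class, with values not well above background marked. The wild-type array with DSS and LIF gives the highest value for 19 of 24 genes seen on all 4 arrays, and the lowest for Chek1, Tyms, Mybl2 and Plk1. Of all 8039 genes seen on all 4 arrays, it gives the highest value for 53.6% and the lowest for 2131.

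The difference of the labelled knockout from wild type under DSS asks whether cell cycle genes depend on Stat4 in colitis, and its arrays were read together. Cell cycle genes stood slightly lower in the labelled knockout. Of 27 genes measured on both arrays, 19 were below 0, and the median log2 difference was -0.20 (quartiles -0.70 and 0.13), against 0.08 over 10529 genes. Above 0 were 29.6% of these members and 54.6% of all measured genes. At 2-fold or more, 3 were lower (Tyms, Pcna and Cdk1) and 0 higher, where 6.86% of all measured genes were lower and 13.2% higher. In bulk RNA fewer cells of a type and less RNA per cell cannot be told apart. Another 9 genes were below background in the labelled knockout alone and have only a bound, and 4 were below background on both arrays. Of all 20659 genes, 3446 were below background in the labelled knockout alone and 6444 on both arrays. Under all alternative settings the members' median less that of all genes lay between -0.71 and -0.11.

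Among replication genes, Tyms, thymidylate synthase, was at 3.40 and 3.39 in labelled knockout cells with and without LIF, and at 2.09 and 4.68 in wild-type cells with and without LIF. On this scale its level was nearly equal on the labelled knockout arrays and lay between the wild-type values. Under DSS it was 2.45-fold lower in the labelled knockout (log2 difference -1.29), and under DSS and LIF 2.48-fold higher (1.31). The second difference was 0.73 with normexp (offset 50) and 0.30 without an offset, no longer 2-fold.

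Pcna was at 2.35 and 2.05 in labelled knockout cells with and without LIF, and at 4.61 and 3.12 in wild-type cells with and without LIF. Both labelled knockout values lay below both wild-type values. The labelled knockout was 2.11-fold lower under DSS (-1.08) and 4.78-fold lower under DSS and LIF (-2.26). The sliding clamp was the only member at least 2-fold lower in both genotype comparisons.

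The helicase subunits differed less under DSS. Mcm2, Mcm3, Mcm4, Mcm6 and Mcm7 had differences between -0.23 (Mcm6) and 0.14 (Mcm2), while Mcm5 and the ribonucleotide reductase subunit Rrm1 were below background in the labelled knockout. Rrm1 was at -2.29 there and -1.54 in wild type, at least 1.51-fold lower. The other subunit, Rrm2, was at 2.15 and 2.59, a difference of -0.44. Higher values were seen for Tk1, thymidine kinase (0.62), and Cdt1 (0.37).

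Mitosis genes gave 10 of 13 differences below 0 under DSS, with a median of -0.48, against -0.10 for 10 replication genes. Cdk1 was at 2.35 and 1.59 in labelled knockout cells with and without LIF, and at 3.12 and 2.63 in wild-type cells with and without LIF. It was lowest in the labelled knockout with DSS alone, where it was 2.05-fold lower than in wild type (-1.04), and its second probe gave -0.997. Kif23, a kinesin of cytokinesis, was at -2.32 and -3.80 in labelled knockout cells with and without LIF, and at -3.71 and -0.52 in wild-type cells with and without LIF. Only the wild-type array with DSS alone was well above background, and the labelled knockout was at least 3.05-fold lower there. Bounds of 2-fold or more lower were found for 0.954% of all genes.

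Of the other measured mitosis genes 6 lay between -0.85 and -0.48 under DSS. They were Nusap1, a spindle microtubule protein (-0.85), Mki67 (-0.77), Birc5, the survivin subunit of the chromosomal passenger complex (-0.72), Aurka, a centrosome kinase (-0.69), Cenpa, the centromeric histone (-0.69), and Ccnb1, cyclin B1 (-0.48). Plk1 (-0.20), Ccna2 (-0.098) and Ccnb2 (-0.091) were closer to 0. Probes of a gene did not all give the same value. The 3 Birc5 probes ran from -1.12 to 0.23, and the second Ccnb1 probe was at 0.11. Foxm1, which drives mitotic transcription, was higher by 0.61, the centromeric kinesin Cenpe by 0.50 and Cdc20 by 0.25. The replication minus mitosis difference of medians was 0.38, but it was -0.25 after another background correction (normexp with offset 50) and 0.045 over genes seen on all 4 arrays, so no order of the classes is given.

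**Figure D3:**
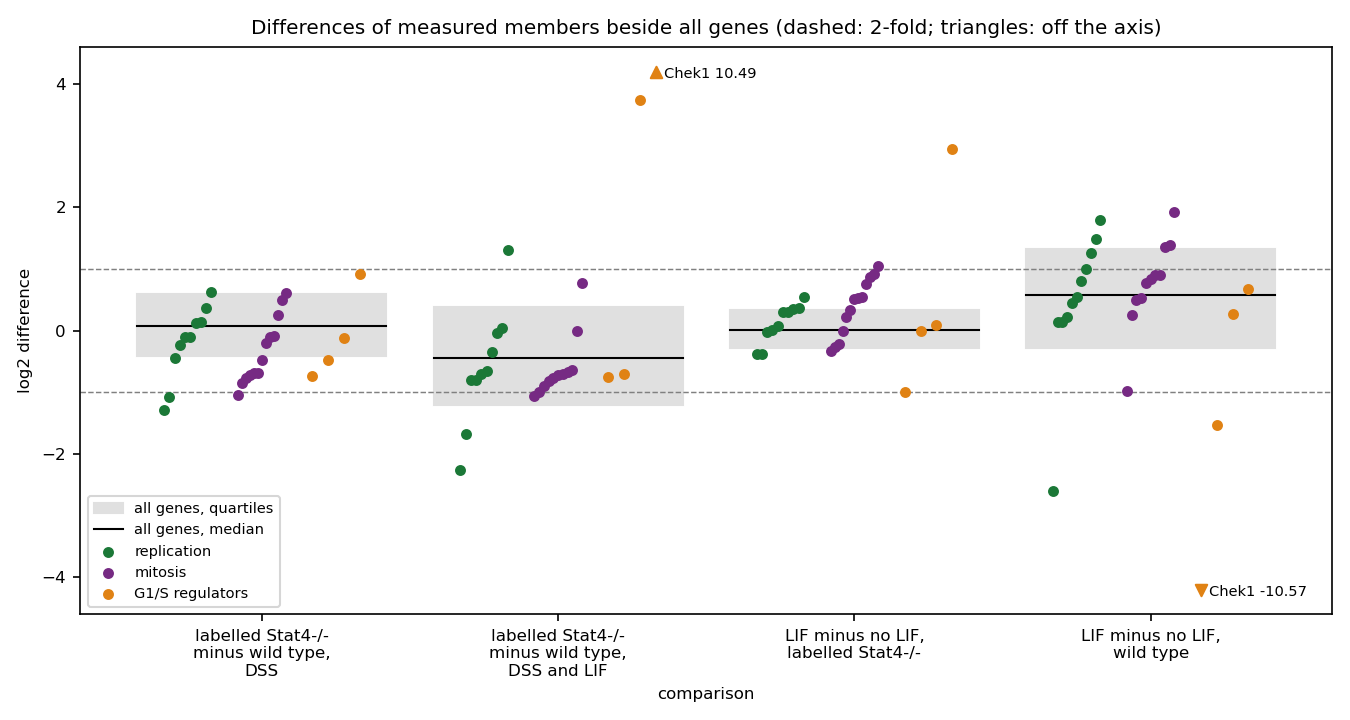
Log2 difference of each gene in the 4 comparisons, for genes well above background on both arrays (points), beside the quartiles (grey) and median (line) of all genes, with dashed lines at 2-fold. Labelled knockout minus wild type under DSS holds 19 of 27 measured genes below 0, where 54.6% of all genes were above 0. LIF minus no LIF in the labelled knockout holds 18 of 27 above 0, where 50.5% of all genes were. The median of the latter turns to -0.082 or -0.30 with the normexp corrections.

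Repeated spots show the measurement error for Bub1, a spindle checkpoint kinase whose probe is printed 10 times per array. Its spots averaged -1.47 ± 0.23 and -2.63 ± 0.28 in labelled knockout cells with and without LIF, and -0.83 ± 0.20 and -1.67 ± 0.13 in wild-type cells with and without LIF (SD over 10, 8, 10 and 10 spots, which are technical). None of the 8 spots used was well above background in the labelled knockout without LIF, where 1 of the spots left out as outliers was, and all 10 were on each other array. The labelled knockout was at least 1.37-fold lower than wild type under DSS, and LIF at least 1.58-fold higher than no LIF in the labelled knockout. For 139 to 181 repeated probes per comparison, the median SD over spots of a log2 difference between arrays was 0.099 to 0.103. For measured members, the scanner's signal error gave differences a larger error, with medians of 0.197 to 0.198 and values up to 0.345. Both cover error within arrays alone.

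**Figure D4:**
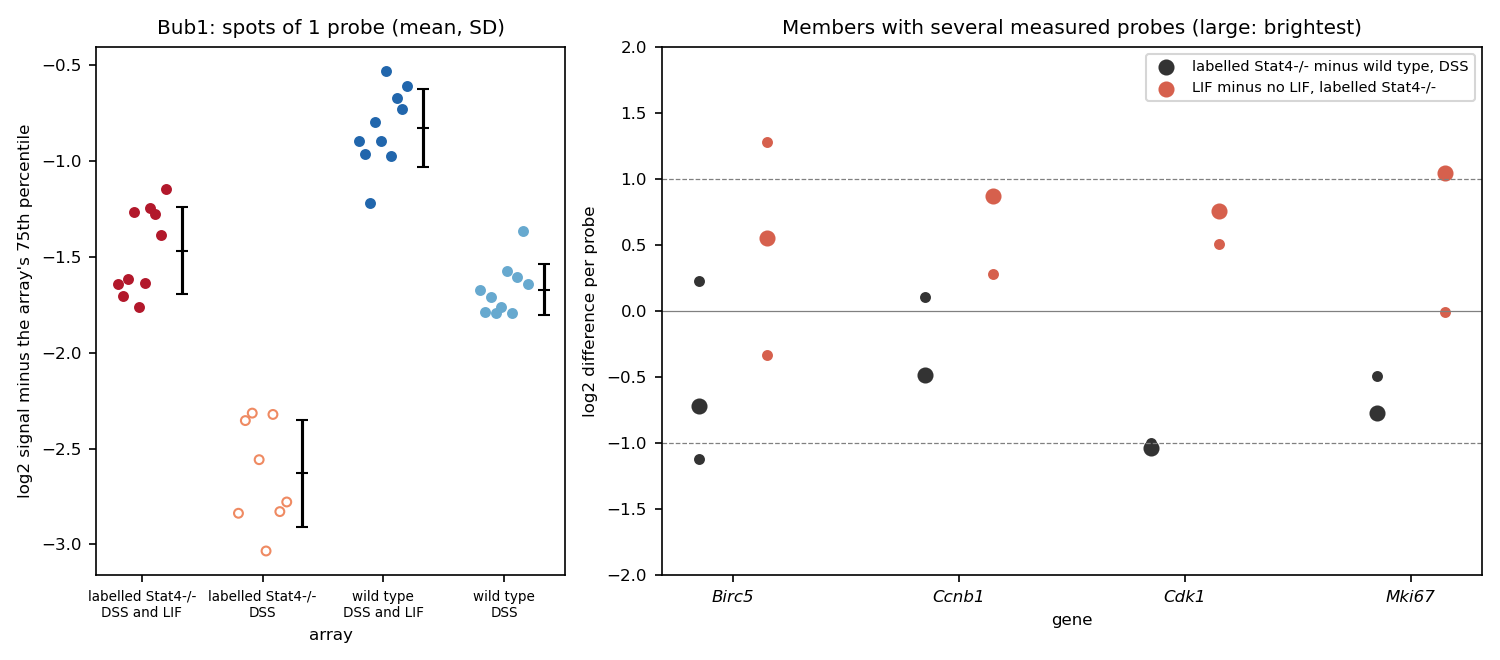
Levels of the replicate Bub1 spots on each array (log2, points are spots, open where not well above background, bars are mean and SD), and log2 differences of the separate probes of 4 genes in 2 comparisons. The Bub1 spots in the labelled knockout without LIF lie lowest, at -3.03 to -2.32, and the Birc5 probes lie on both sides of 0 in both comparisons.

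The LIF comparison in the labelled knockout asks what the cytokine does without Stat4, across 2 scans. Cell cycle genes were slightly higher with LIF, at a median log2 difference of 0.30 (quartiles -0.02 and 0.54), against 0.0047 over 9781 genes. Above 0 were 18 of 27 members (66.7%) and 50.5% of all measured genes. The direction of the members' median turned with the background correction, to -0.082 with normexp (offset 50) and -0.30 when no offset was added. The medians of all genes were then -0.12 and -0.29. At 2-fold or more, 2 were higher (Mybl2 and Mki67) and 0 lower, where 3.43% of all genes were higher and 2.93% lower.

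Mki67 was at -0.28 and -1.33 in labelled knockout cells with and without LIF, and at -1.83 and -0.56 in wild-type cells with and without LIF. It was 2.07-fold higher with LIF in the labelled knockout (1.05), but by 0.42 with normexp (offset 50), and its second probe gave -0.010. On the wild-type array with LIF the first probe was below background, whereas the second was well above it and at its highest, at 0.23. Other mitosis genes above 0.5 were Aurka (0.92), Ccnb1 (0.87, second probe 0.28), Cdk1 (0.76, second probe 0.51), Birc5 (0.55, probes from -0.33 to 1.28), Nusap1 (0.54) and Foxm1 (0.51). With both normexp corrections Ccnb1 was at 0.097 and -0.093, and Cdk1 at 0.0018 and -0.30. Cyclin B2 (Ccnb2) was at -0.21 and the mitotic kinase Plk1 at -0.013. Among replication genes Rrm2 was higher by 0.55. The class medians were 0.51 for mitosis and 0.19 for replication genes, a gap of -0.32 that lay between -0.55 and -0.12 under the alternatives.

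LIF in wild type asks what LIF does in the colitis of mice with Stat4, and rests on the array that stood apart. There 22 of 26 genes (84.6%) were above 0 and the median was 0.61. Over 8983 genes, however, 68.5% were above 0 and the median was 0.58. At 2-fold or more 7 were higher (Foxm1, Mcm6, Pcna, Ccnb1, Cdc20, Tk1 and Mcm3) and 3 lower (Chek1, Tyms and Mybl2), where 34.8% of all measured genes were higher and 13.6% lower. With normexp (offset 50) only Foxm1 stayed 2-fold higher, at 1.01, and the median was 0.024. The other 6 were then at 0.51 (Mcm6), 0.29 (Pcna), 0.26 (Ccnb1), 0.23 (Cdc20), 0.64 (Tk1) and 0.075 (Mcm3). With normexp without an offset 5 members were 2-fold higher, beside 27.0% of all genes, and the median was 0.40. Quantile scaling, median scaling and the authors' table each gave 6, beside 32.7%, 29.9% and 34.7% of all genes.

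Mcm6 was at 2.32 and 1.96 in labelled knockout cells with and without LIF, and at 3.99 and 2.19 in wild-type cells with and without LIF. The wild-type array with LIF was high and the other 3 were near each other, so LIF was 3.49-fold higher in wild type (1.80) and the labelled knockout 3.18-fold lower under DSS and LIF (-1.67). Mcm3, a second helicase subunit, was at 1.73 and 1.43 in labelled knockout cells with and without LIF, and at 2.54 and 1.53 in wild-type cells with and without LIF. Its LIF difference in wild type was 2.01-fold (1.00). Tk1 was at 0.43 and 0.45 in labelled knockout cells with and without LIF, and at 1.09 and -0.18 in wild-type cells with and without LIF, 2.40-fold higher with LIF in wild type. Pcna was 2.81-fold higher with LIF in wild type (1.49), by the levels above.

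Among mitosis genes, Foxm1 was at -1.02 and -1.52 in labelled knockout cells with and without LIF, and at -0.20 and -2.13 in wild-type cells with and without LIF. It was 3.80-fold higher with LIF in wild type (1.93). Ccnb1 was at 1.75 and 0.88 in labelled knockout cells with and without LIF, and at 2.75 and 1.36 in wild-type cells with and without LIF, 2.62-fold higher with LIF in wild type (1.39, second probe 0.80). Cdc20 was at 2.03 and 1.82 in labelled knockout cells with and without LIF, and at 2.93 and 1.57 in wild-type cells with and without LIF, a 2.57-fold difference (1.36). All 3 were highest in wild-type cells with LIF. Aurkb, the kinase of the chromosomal passenger complex, was at -3.18 and -3.52 in labelled knockout cells with and without LIF, and at -1.19 and -3.71 in wild-type cells with and without LIF. It was well above background only on the wild-type array with LIF. By its bound it was 5.74-fold higher there than without LIF, and this bound equals the difference between the levels. Bounds of 2-fold or more higher were found for 1.22% of all genes. The dimmest probe well above background on the wild-type array with LIF lay close by, at -1.49. The 75th percentile subtracted was at a signal of 23.7 there and 123 on the wild-type array without LIF. No normexp value is given for Aurkb.

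The genotype comparison under DSS and LIF also uses the array that stood apart, and shares it with the LIF comparison in wild type, so their values only stand side by side. Of 25 measured genes, 20 were below 0 and the median was -0.70, against -0.44 over 8348 genes. Above 0 were 20% of these members and 35.2% of all measured genes. Past 2-fold, the higher ones were Chek1, Mybl2 and Tyms, and the lower ones Pcna, Mcm6 and Ccnb2, where 14.2% of all genes lay higher and 30.9% lower. Ccnb2, cyclin B2, was at -1.26 and -1.05 in labelled knockout cells with and without LIF, and at -0.19 and -0.96 in wild-type cells with and without LIF, 2.10-fold lower in the labelled knockout (-1.07). This shrank to -0.13 with normexp (offset 50) and -0.099 without an offset. Ccnb1 lay just inside 2-fold, with a difference of -0.996. Medians were -0.68 for replication and -0.73 for mitosis genes.

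Among the G1/S regulators 2 probes differed widely. Chek1, the kinase of the replication checkpoint, was at 9.27 and 10.26 in labelled knockout cells with and without LIF, and at -1.22 and 9.35 in wild-type cells with and without LIF. Its 1 probe was above 99.3% of probes or more on 3 arrays and above 64.5% on the wild-type array with LIF, a 1442-fold difference between genotypes under LIF and 1515-fold with LIF in wild type. Of 440 probes above 8 on the other 3 arrays, 42 were below 0 on that array, and what they hybridise with there was not tested. Mybl2 was at 5.02 and 2.07 in labelled knockout cells with and without LIF, and at 1.28 and 2.81 in wild-type cells with and without LIF. It was 7.71-fold higher with LIF in the labelled knockout (2.95) and 2.88-fold lower with LIF in wild type (-1.53), where its second probe gave 2.41 and the mean over probes 0.44. With normexp the difference in the labelled knockout was 1.73 (offset 50) or 1.51. E2f1, which activates replication genes, and Ccne1, cyclin E1, differed by less than 2-fold in all 4 comparisons. Ccne1 was at -0.75 and -0.74 in labelled knockout cells with and without LIF, and at 0.00059 and -0.27 in wild-type cells with and without LIF. E2f1 was at -1.51 and -1.60 in labelled knockout cells with and without LIF, and at -0.80 and -1.48 in wild-type cells with and without LIF.

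Of the 40 genes, 15 passed 2-fold in at least 1 comparison, by a measured difference or a bound, and 25 in none. The share of all genes by that rule was not computed. Of genes seen on all 4 arrays by their brightest probe, 58.3% of 24 members spanned 2-fold or more from lowest to highest array. The share was 64.7% of 8039 genes. Among those 25, the steadiest that were seen on every array were Mcm2, at 0.97 and 0.62 in labelled knockout cells with and without LIF and at 0.92 and 0.48 in wild-type cells with and without LIF, and cyclin A2 (Ccna2), at 1.07 and 0.73 in labelled knockout cells with and without LIF and at 1.08 and 0.83 in wild-type cells with and without LIF. Birc5, the brightest mitotic probe, was at 3.01 and 2.46 in labelled knockout cells with and without LIF, and at 3.71 and 3.18 in wild-type cells with and without LIF. By that probe both LIF arrays lay above their arrays without LIF, and both labelled knockout arrays below wild type with the same treatment. The other Birc5 probes did not share this order. They were below background in wild-type cells with LIF, at -3.12 and -1.44, and well above it on the other 3 arrays, where wild-type cells without LIF were at -0.65 and 0.041. Aurka, with 1 probe, had the order of the brightest Birc5 probe, at 1.32 and 0.40 in labelled knockout cells with and without LIF, and at 1.98 and 1.09 in wild-type cells with and without LIF. Plk1, a kinase of mitotic entry and exit, ran otherwise, at 0.79 and 0.80 in labelled knockout cells with and without LIF, and at 0.015 and 1.00 in wild-type cells with and without LIF.

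The dimmest probes were read on the brightest array alone. Cdc6, Mcm5, the topoisomerase gene Top2a, the spindle assembly factor Tpx2 and the Cdk1-activating phosphatase Cdc25c were well above background on the wild-type array without LIF and on no other. Their levels there were -2.30, -2.12, -2.99, -3.19 and -2.44. The dimmest probe well above background lay at -2.03 and -2.13 on the labelled knockout arrays with and without LIF, and at -1.49 and -3.79 on the wild-type arrays with and without LIF. Except for Mcm5, which lay just above the limit of the labelled knockout array without LIF, these levels were below the limits of the other 3 arrays, and no differences are given for the 5 genes. Nusap1 and Cenpa were lost only on the wild-type array with LIF, and were at least 1.96-fold and 1.58-fold lower there than in wild-type cells without LIF.

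Over 24 genes seen on all 4 arrays by their brightest probe, 19 (79.2%) were highest in wild-type cells with LIF, against 53.6% of 8039 genes. The median range over the 4 arrays was 1.18, against 1.29 for all genes, and 0.49 against 0.63 without that array. The median level of 10 replication genes was 1.97 and 2.00 in labelled knockout cells with and without LIF, and 2.49 and 2.10 in wild-type cells with and without LIF. For 10 mitosis genes it was 1.25 and 0.84 in labelled knockout cells with and without LIF, and 1.95 and 1.05 in wild-type cells with and without LIF. The genotype comparisons with and without LIF share no array. In them 13 of 24 genes (54.2%) were lower in the labelled knockout in both and 2 higher in both, where 31.4% and 20.2% of all genes were. Of the 24, 14 (58.3%) were higher with LIF in both genotypes and 2 lower, where 30.6% and 16.4% of all genes were. These LIF shares were not computed with normexp. That correction turned the members' median for LIF in the labelled knockout to -0.082 (offset 50) or -0.30. For LIF in wild type it gave 0.024 (offset 50) or 0.40.

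Other genes of the same processes were read from 4 lists, and the counts are of genes measured on both arrays. For comparison, 13.2% of all measured genes were at least 2-fold higher under DSS, 6.86% at least 2-fold lower and 54.6% above 0. Under DSS, 29 other replication genes had a median labelled knockout difference of -0.22, with 16 below 0, 2 at least 2-fold higher and 1 lower. The lowest were Dut, the dUTPase (-1.50), Gmnn, the geminin inhibitor of Cdt1 (-0.99), and Rfc4, a clamp loader subunit (-0.91), and the highest were the origin-firing kinase Cdc7 (1.52), the polymerase subunit Pole (1.18) and the helicase cofactor Cdc45 (0.76). Of 42 other mitosis genes 29 were below 0, with a median of -0.34, 1 higher and 4 lower at 2-fold. The lowest were Cks1b, a Cdk-binding subunit (-1.64), Ect2, an exchange factor of cytokinesis (-1.59), and the checkpoint protein Mad2l1 (-1.44), and the highest were the kinetochore gene Ndc80 (1.34), Cdca2 (0.87) and Cdkn3 (0.51). Of 7 G1 cyclins and kinases the median was 0.24, and of the measured genes only E2f3, an E2F activator, was beyond 2-fold (-1.66). The next were Myc (-0.33) and Cdk4 (0.0058), and the highest were E2f2 (0.81), Ccnd3 (0.64) and Cdc25a (0.44). Of 16 cell cycle brakes the median was 0.12, with 2 genes at least 2-fold higher and 1 lower. The higher ones were Cdkn1a (2.13), the p21 inhibitor of cyclin-dependent kinases, and Ccng1 (1.39), and the lower one was the inhibitor Cdkn2b (2.01-fold). On the wild-type array without LIF, Cdkn1a was at -3.65 and Ccng1 at -3.14, near the dimmest probe well above background there (-3.79). The others at the ends were Gadd45b (0.82), Cdkn2c (-0.56) and E2f8 (-0.46).

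With LIF in the labelled knockout, 20 of 27 other replication genes were above 0 with a median of 0.20, and 28 of 39 other mitosis genes with a median of 0.40. These medians were not computed with normexp, which turned that of the members. Of the 27 replication genes, Timeless, a replication fork protein (1.68), was higher by 2-fold. Of the 39 mitosis genes, Ube2s, a ubiquitin enzyme of the anaphase-promoting complex (2.06), and Ect2 (1.31) were. The kinesin Kif18b was lower by 2-fold (-1.04). Across all measured genes 3.43% lay that far up, 2.93% that far down, and 50.5% above 0. Next among replication genes came Rfc4 (0.89) and Cdc7 (0.83) at the high end and the clamp loader subunit Rfc5 (-0.84), Pole (-0.67) and the chromatin assembly subunit Chaf1b (-0.49) at the low end. Next among mitosis genes came the kinetochore gene Spc24 (0.92), and Cdc25b (-0.74) and Ndc80 (-0.52) at the low end. The G1 list had a median of 0.08 over 6 genes, with Myc (0.90), Cdk4 (0.50) and Ccnd2 (0.25) highest and E2f2 (-0.58), Ccnd3 (-0.095) and Cdc25a (-0.087) lowest. The brakes had a median of -0.05 over 13 genes, with Wee1, which inhibits Cdk1 (0.94), E2f8 (0.85) and Cdkn2b (0.33) highest and Btg1 (-0.62), Cdkn1b (-0.56) and Rbl1 (-0.30) lowest. No measured gene of these lists passed 2-fold. Cyclin D1 (Ccnd1), named after its values were seen, was at -0.27 and -2.16 with and without LIF, the second below background, and so had a bound past 2-fold higher. Such bounds were also found for 1 other replication gene (higher) and for other mitosis genes (2 higher and 2 lower). Of all 20659 genes, 170 had a bound past 2-fold higher and 136 lower. With LIF in wild type, 2-fold differences numbered 5 up and 2 down among 20 other replication genes, and 9 up and 3 down among 36 other mitosis genes, beside 34.8% up and 13.6% down among all genes. For genotype under DSS and LIF, the labelled knockout was at least 2-fold higher than wild type in 2 of 19 other replication genes and lower in 6, and in 6 and 10 of 35 other mitosis genes, beside 14.2% higher and 30.9% lower among all genes.

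**Figure D5:**
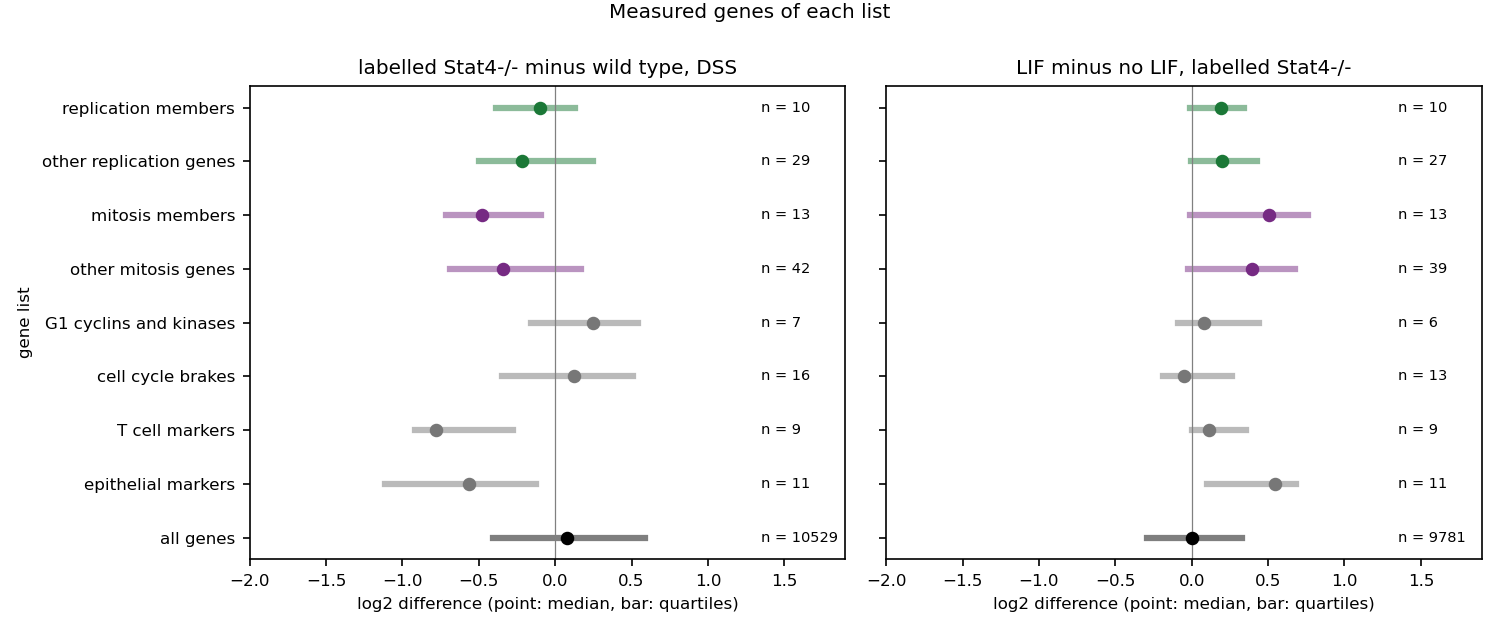
Median (point) and quartiles (bar) of the log2 differences in each class, pathway and marker list and in all genes, for labelled knockout minus wild type under DSS and for LIF minus no LIF in the labelled knockout. Under DSS the medians of replication and mitosis lists lie between -0.48 and -0.10, and those of G1 cyclins and brakes at 0.24 and 0.12. With LIF the replication and mitosis medians are 0.19 to 0.51, and the median of all members turns below 0 with the normexp corrections.

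Marker genes of other cell types also differed between the arrays. The 10 T cell markers summed to 20.4 and 20.1 times the 75th percentile signal in labelled knockout cells with and without LIF, and to 62.1 and 32.5 in wild-type cells with and without LIF, with 9 or 10 detected on each array. Under DSS all 9 measured T cell markers were below 0, with a median of -0.78. The 11 epithelial markers summed to 45.9 and 43.0 in labelled knockout cells with and without LIF, and to 125 and 46.5 in wild-type cells with and without LIF, and 10 or 11 were detected on each array. Tff3, a goblet cell peptide at 6.17 in wild-type cells with LIF, made up much of the sum there, while Epcam, Krt8 and Krt19 were lowest on that array, at -0.42, -0.40 and -0.30 (genes named after their values were seen). Under DSS 9 of 11 epithelial markers were below 0, with a median of -0.56, and with LIF in the labelled knockout 9 of 11 were above 0, with a median of 0.54. Epithelial stem and progenitor markers were above 0 in 6 of 7 with LIF in the labelled knockout (median 0.37), and B cell markers below 0 in 6 of 6 (median -0.67). Of all measured genes, 54.6% were above 0 under DSS and 50.5% with LIF in the labelled knockout. The part of these cell types in the cell cycle values was not tested.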

How the data were processed

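The deposited scanner files hold spot intensity values from Agilent Feature Extraction, in version 11.0.1.1 per the file headers, while the submitters' processing notes name 9.1. According to those headers the processed signal has its background subtracted. A second deposited table holds the authors' log2 values. Its column medians were 3.31 for labelled knockout with LIF, 3.31 without LIF, 2.54 for wild type with LIF and 3.31 without LIF, and it correlated with the log2 scanner values at 0.971 to 0.992. Scale and direction are thus known, and its normalization and centring are not given in the sources used here.

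From 43020 non-control spots per array, 164 to 241 outlier spots were left out, spots of a probe were averaged as log2 values and each array's 75th percentile was subtracted. RefSeq accessions named 27234 of 39429 probes (69.1%), with GRCm38.p6 used for names and promoters. Of 20659 genes 5476 had several probes, and the brightest was taken. A probe was called well above background if 50% or more of its spots were. A gene below it on 1 array received a bound against the dimmest probe above background there, or its own reading if higher. That dimmest probe is no firm limit. On the wild-type array with LIF a Birc5 probe below background lay at -1.44, above the dimmest detected one at -1.49. Probes detected numbered 18007 and 17709 on labelled knockout arrays with and without LIF, and 14823 and 24339 on wild-type arrays with and without LIF.

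Genes were counted at a log2 difference of 1. Named were members past it in any comparison, members whose probes disagreed, the brightest and dimmest of each class, and the 3 highest and 3 lowest of each pathway list. Members and lists were chosen with earlier results of these data known. limma 3.58.1 in R 4.3.3 gave the normexp correction (median signal and median background) and quantile scaling, and the calculations were tested on simulated data. Alternatives were these, median scaling, no filter, genes seen on all 4 arrays, the mean over probes, bounds entered as values and the authors' table. One more, the brightest probe chosen without the array that stood apart, was chosen after seeing the data.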

Additional observations from a re-analysis of the deposited data

Results flagged for a closer look

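Mybl2 was 2.95 higher on the log2 scale with LIF in the labelled knockout and had a LIF difference of -1.53 in wild type, so the arms went opposite ways past 2-fold by the brightest probe. Its second probe gave 2.41 in wild type, the same way as the labelled knockout arm, and the mean over probes was 0.44. Tyms had a labelled knockout minus wild type difference of 1.31 under DSS and LIF and of -1.29 under DSS. With the normexp corrections the first was 0.73 or 0.30, below 2-fold. Each arm rests on 1 array per group, and neither difference between arms was tested.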

How the results depend on the processing

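No paired analysis was possible because each group has 1 array. Of the 21 member differences of 2-fold or more, all kept their direction with both normexp corrections, quantile scaling, median scaling and the authors' table, and 12 stayed 2-fold with normexp (offset 50). Mybl2 with LIF in wild type turned to 0.44 as the mean over probes. With normexp (offset 50) the median difference of the members moved to -0.31 for genotype under DSS and LIF, -0.082 for LIF in the labelled knockout and 0.024 for LIF in wild type, replication minus mitosis to -0.25 for genotype under DSS and 0.018 for LIF in wild type, the lower genes to 5 for genotype under DSS and 1 for LIF in the labelled knockout, and the higher genes to 1 for LIF in either genotype. All genes under DSS were then 339 higher and 809 lower, against 1393 and 722. With normexp without an offset medians were -0.85, -0.30 and 0.40 for the same 3 comparisons, replication minus mitosis 0.068 for genotype under DSS, -0.55 for LIF in the labelled knockout and -0.10 for LIF in wild type, and counts 11 lower for genotype under DSS and LIF and 4 higher and 3 lower for LIF in the labelled knockout. Median scaling gave -0.57 for genotype under DSS and LIF and 0.47 for LIF in wild type. Without a filter medians were -0.46 and -0.57 for genotype under DSS and under DSS and LIF and 0.34 for LIF in wild type, replication minus mitosis -0.092 for genotype under DSS and LIF, -0.12 for LIF in the labelled knockout and -0.0089 for LIF in wild type, and counts 6 lower under DSS, 7 higher and 5 lower under DSS and LIF, 5 higher and 1 lower for LIF in the labelled knockout and 10 lower for LIF in wild type. Over genes seen on all 4 arrays replication minus mitosis was 0.045 for genotype under DSS and -0.16 for LIF in wild type, and 1 gene was higher with LIF in the labelled knockout, as with the mean over probes, which gave 0.094 for genotype under DSS. With bounds entered it was 0.10 for genotype under DSS and -0.052 for LIF in wild type, where the median was 0.35. The causes were not tested. The added choice of probe, run for genotype under DSS and LIF in the labelled knockout, left the members' counts as they were. Genes near background have only bounds, 9 of the 40 under DSS in the labelled knockout, beside 3446 of all 20659 genes.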

Other observations

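The other marker lists gave these median log2 differences of the labelled knockout from wild type under DSS: B cells 0.91, germinal centre B cells -0.26, plasma cells -0.45, natural killer and cytotoxic cells -1.18, neutrophils 2.74, macrophages 0.05, epithelial stem and progenitor cells -0.10, stroma 1.53 and erythroid cells 0.24. With LIF in the labelled knockout they were 0.50 for germinal centre B cells, -0.17 for plasma cells, -0.34 for natural killer and cytotoxic cells, 0.05 for neutrophils, -0.06 for macrophages, -0.64 for stroma and -0.39 for erythroid cells, and 0.11 for T cells.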
